A study of Sus scrofa domesticus with 150 samples.

Results

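The edge of full-thickness excisional wounds in pigs on day 2 after wounding was compared with unwounded skin. The members are the 6 samples that the labels place at the wound edge on day 2, and the 6 samples of skin excised on day 0, so that 12 of the 150 samples of the series carry the comparison. The animals were female domestic pigs of a Yorkshire mix. Each had 12 round wounds, 2 cm across, on the back, covered with Telfa Clear and Tegaderm, and a topical antibiotic was put on biopsied sites. The day 2 edge samples are 3.5 mm punch biopsies from 2 wounds (A and L) of each of 3 animals (1326, 1327 and 1328). The day 0 samples are the whole discs of skin removed when the wounds were made, 1 from each of 6 animals (1323 to 1328), so that the 3 animals of day 2 are also among those of day 0. A whole disc and an edge biopsy can hold different shares of epidermis, hair follicles, dermis and fat. The effect of wounding and the effect of the kind of sample therefore cannot be told apart. In bulk tissue, fewer cells of a type and less RNA per cell cannot be told apart either. The 6 edge samples are 6 wounds but only 3 animals, and p-values over the samples measure the spread between these samples.

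In the first days after a skin wound, platelets and damaged cells release signals that draw neutrophils and then monocytes out of the blood. Keratinocytes at the cut edge loosen their contacts, switch to the stress keratins and begin to move and divide, while resident fibroblasts and vessels start to replace the lost matrix. The wound edge is where these events meet, since it holds intact epidermis, the tip of the moving epithelium and the inflamed dermis beside it.

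The authors deposited read counts per gene, from 16508396 to 19424452 in total per edge sample and from 15698806 to 21415735 per day 0 sample. Levels are given as CPM, a gene's counts scaled to the total of the sample. They are listed as the lowest, median and highest of the 6 samples of a group. Log2 fold changes (log2FC) of the day 2 edge over day 0 skin are given ± SE. The limit that 3 counts allow lies between 0.140 and 0.191 CPM and covers counting error only. A pair of libraries stood apart. The edge sample of animal 1326, wound A, correlated as well with the day 0 samples (mean Pearson's r 0.981 on log2(1 + CPM)) as with the other edge samples (0.981). The day 0 sample of animal 1324 had a lower mean r with its group (0.976) than the other 5 day 0 samples (0.986 to 0.989), and KRT27, a keratin of the inner root sheath of the hair follicle, was at 6.57 CPM in it, against 2130 to 6357 CPM in the other 5. The counts were therefore also taken without both of these libraries.

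Of 14865 genes tested with edgeR's quasi-likelihood test, 3423 were higher at the day 2 edge (23.0% of those tested) and 3368 were lower (22.7%), at a Benjamini-Hochberg adjusted p below 0.05. The median log2 fold change of all tested genes was -0.04. Without the libraries that stand apart the counts were 3646 higher and 3303 lower. With the wounds of an animal summed and the animal as a block in the 3 animals sampled on both days, 2381 genes were higher and 1758 were lower. Scaling by the library totals alone moved the median of all genes up by 0.107 on the log2 scale and gave 4182 higher and 2453 lower genes, so that 63.0% of the calls were higher against 50.4%. In 2431 genes all 6 edge samples lay above all 6 day 0 samples (16.4%), and in 861 genes all lay below (5.79%). Overlap was judged on CPM, which are scaled by the library totals alone, here and below. The excess of genes above over genes below therefore carries the upward shift of that scaling. Asking for at least a 2-fold change left 1197 higher and 1036 lower genes.

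**Figure D1:**
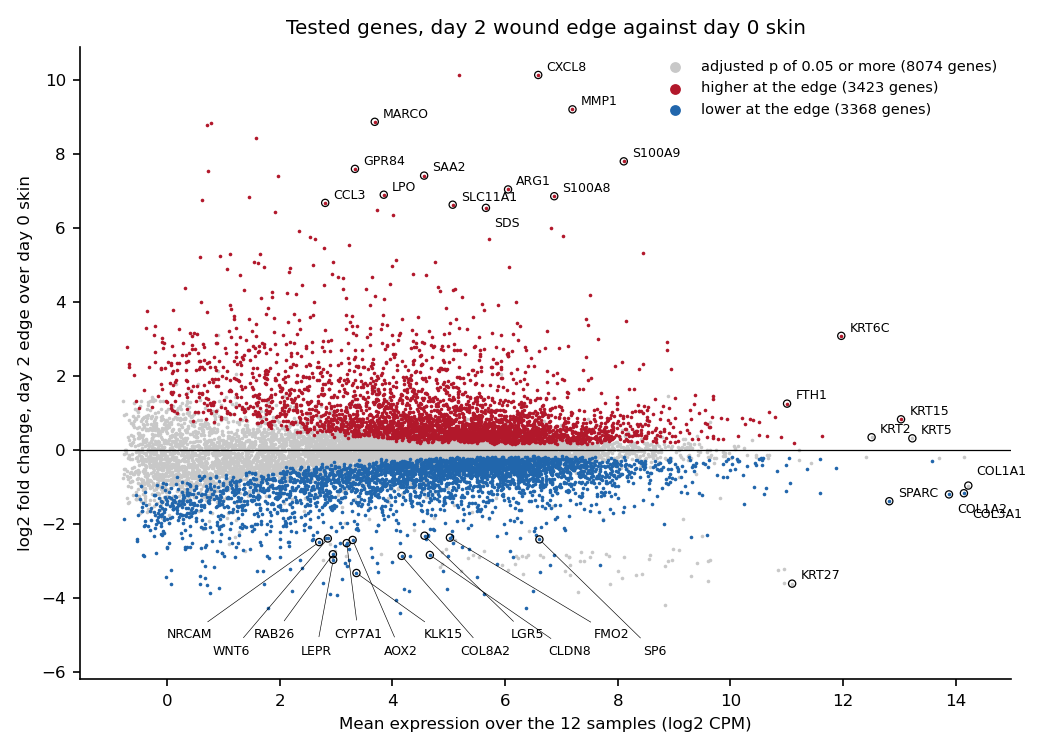
Each point is 1 of the 14865 tested genes, with the mean expression over the 12 samples in log2 CPM on the horizontal axis and the log2 fold change of the day 2 edge over day 0 skin on the vertical axis. Red points are the 3423 genes that were higher and blue points the 3368 that were lower at an adjusted p below 0.05, and circles mark the genes with the largest changes that did not overlap between groups and those with the largest gain or loss in their share of the counts.

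The genes with the largest rise among those without overlap between the groups (named by rule, at a mean of at least 10 CPM) included several genes of neutrophils and macrophages. CXCL8, the chemokine that draws neutrophils, came first. Its lowest, median and highest levels were 13.3, 137 and 504 CPM at the edge and 0, 0.0989 and 0.573 in day 0 skin (log2FC 10.14 ± 1.13, adjusted p = 2.15e-05). MMP1, the collagenase with which keratinocytes cut fibrillar collagen as they move, was at 102, 289 and 504 CPM at the edge and 0.30, 0.498 and 0.628 in day 0 skin (log2FC 9.21 ± 0.47, adjusted p = 1.65e-07). Every edge sample lay above every day 0 sample for both genes, and all day 0 levels were below 1 CPM. MARCO, a scavenger receptor of macrophages, was at 6.37, 21.4 and 60.4 CPM at the edge and 0, 0 and 0.187 in day 0 skin (log2FC 8.88 ± 0.81, adjusted p = 5.11e-06). The count filter also keeps genes that are high in a single group. CXCL8, MMP1 and MARCO, near absent in day 0 skin, were kept through their edge samples, so their direction was in part set by the filter. The same applies to other genes near absent in day 0 skin, such as MMP13 and IL36A below. S100A9 and S100A8, which form calprotectin in neutrophils and stressed keratinocytes, followed with log2 fold changes of 7.81 ± 0.47 and 6.86 ± 0.45. The other genes of this group were GPR84, a receptor for medium-chain fatty acids on myeloid cells (7.60 ± 1.04), SAA2, an acute phase protein (7.42 ± 0.43), ARG1, the arginase of healing macrophages (7.05 ± 0.73), LPO, lactoperoxidase (6.90 ± 0.67), CCL3, a chemokine of macrophages (6.68 ± 0.78), SLC11A1, a metal transporter of phagosomes (6.63 ± 0.50), and SDS, serine dehydratase (6.55 ± 0.64). The names of SAA2, GPR84 and CCL3 come from a protein match, CCL3 is listed under 3 identifiers, and SAA2 has close copies, so that the levels of SAA2 and CCL3 are uncertain.

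The largest falls without overlap were smaller, from -3.33 ± 0.55 for KLK15, a kallikrein protease, to -2.32 ± 0.50 for LGR5, a marker of hair follicle stem cells. Between them lay LEPR, the leptin receptor (-2.97 ± 0.46), COL8A2, a short-chain collagen (-2.87 ± 0.49), CLDN8, a claudin of tight junctions (-2.84 ± 0.49), RAB26, a small GTPase of secretion (-2.82 ± 0.34), CYP7A1, best known for bile acid synthesis in liver (-2.52 ± 0.64), NRCAM, a neuronal adhesion molecule (-2.49 ± 0.44), AOX2, an aldehyde oxidase (-2.44 ± 0.29), SP6, a transcription factor of the epidermis and its appendages (-2.42 ± 0.37), WNT6, a WNT ligand of the epidermis (-2.40 ± 0.29), and FMO2, a flavin-containing monooxygenase (-2.37 ± 0.41). The highest adjusted p among these 12 genes was 0.00653, for CYP7A1. LGR5 was at 0.779, 8.0 and 15 CPM at the edge and 29.4, 35.2 and 54.2 in day 0 skin. Its edge samples were spread widely, from 0.779 CPM in animal 1328, wound L, to 15.0 CPM in animal 1326, wound A, and all lay under the lowest day 0 sample. SP6 was at 21.7, 26.8 and 46.1 CPM at the edge and 61, 191 and 229.8 in day 0 skin, with no overlap.

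**Figure D2:**
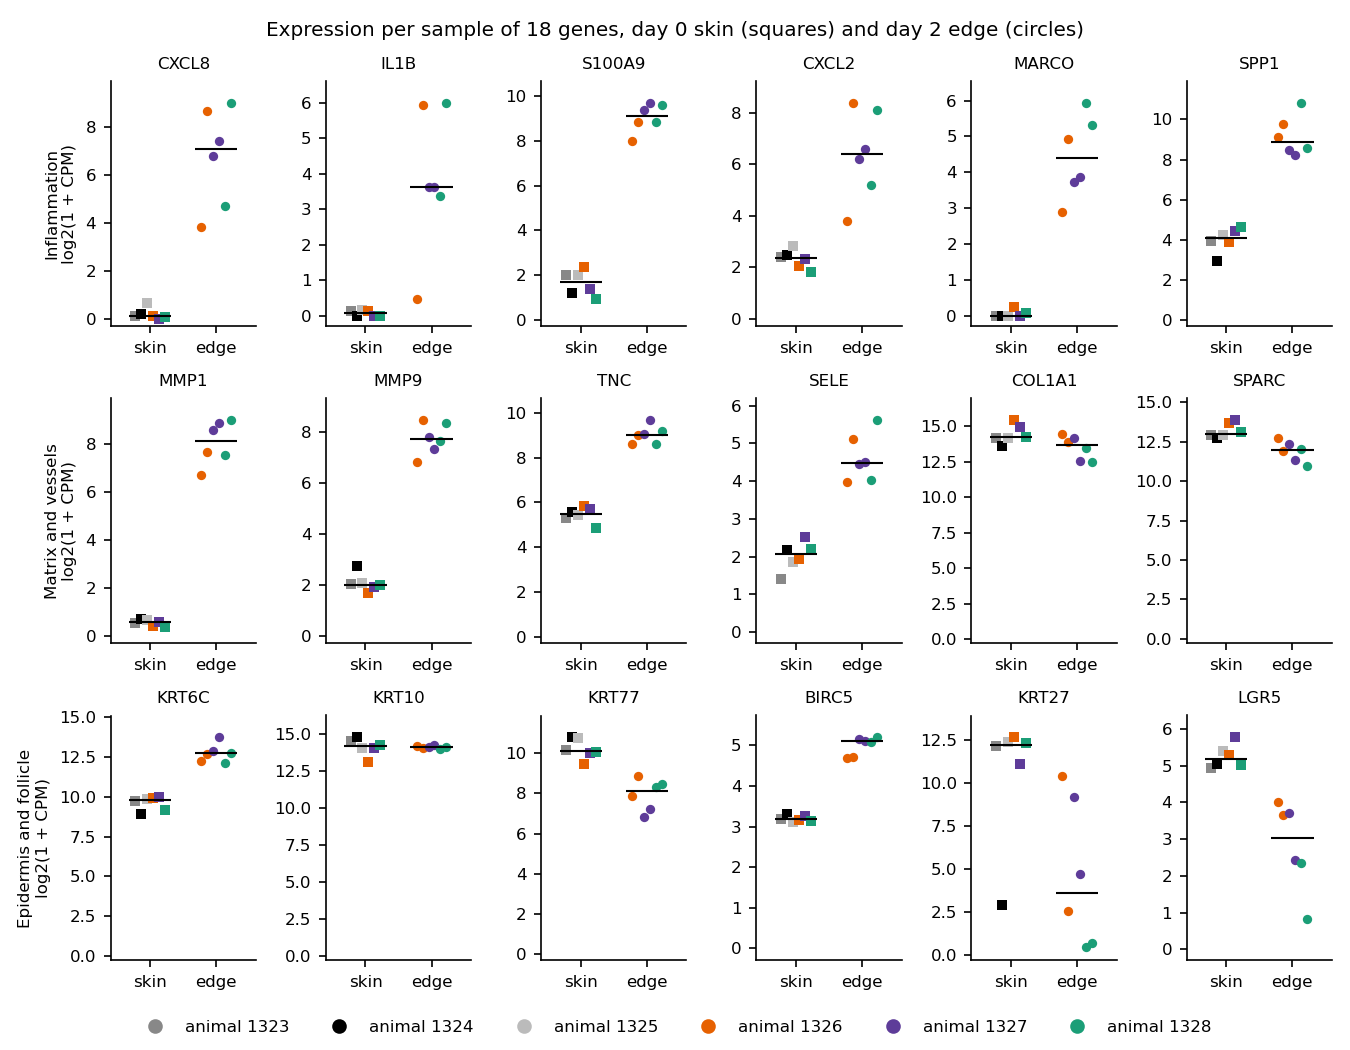
Levels of 18 genes in each sample as log2(1 + CPM) on the vertical axis, with day 0 skin as squares and the day 2 edge as circles, coloured by animal, and a line at the median of each group. CXCL8, S100A9, MARCO, MMP1, MMP9 and KRT6C do not overlap between the groups, KRT10 does, and KRT27 spreads from 0.367 to 1357 CPM within the edge samples.

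Neutrophils are the first white cells to enter a wound. Of 17 tested neutrophil genes 12 rose and 2 fell, with a median log2 fold change of 2.18, against 23.0% and 22.7% of all genes and a median of -0.04. In 11 of them all edge samples lay above all day 0 samples. S100A9 was at 257, 562 and 823 CPM at the edge and 0.899, 2.29 and 4.11 in day 0 skin and S100A8 at 91.1, 253 and 396 CPM at the edge and 0.631, 1.89 and 3.19 in day 0 skin. S100A12, the third of the calgranulins, was at 113, 269 and 443 CPM at the edge and 0.971, 3.96 and 7.45 in day 0 skin (log2FC 5.79 ± 0.49, adjusted p = 2.83e-06). CSF3R, the receptor for the neutrophil growth factor G-CSF, rose from a median of 2.16 to a median of 61.1 CPM (log2FC 4.30 ± 0.49). CYBB, the catalytic subunit of the phagocyte oxidase, rose from a median of 11.3 to 128 CPM (log2FC 3.44 ± 0.27). MPO, the main peroxidase of neutrophil granules, had 4 counts over the 6 day 0 samples and 8 over the 6 edge samples and was not tested. The members that fell were ELANE, neutrophil elastase (log2FC -0.90 ± 0.31, adjusted p = 0.0307), and PADI4, which citrullinates histones (log2FC -1.42 ± 0.36, adjusted p = 0.0062). ELANE did not pass with the animal as a block (adjusted p = 0.174), nor on leaving out any 1 of 7 samples (0.0509 to 0.0711). LTF, lactoferrin, was at 0.599, 45.7 and 353 CPM at the edge and 8.39, 23.4 and 33.1 in day 0 skin and did not pass the test (log2FC 2.06 ± 1.03, adjusted p = 0.119; 0.0439 without the edge sample of animal 1328, wound L). CXCR2 is listed under 2 gene identifiers with similar names, so that its level is uncertain.

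Of 6 genes found in the list of neutrophil-attracting signals only 3 were kept by the count filter, and all 3 rose. CXCL8, near absent in day 0 skin, was kept through its edge samples, so its direction was in part set by the filter. Fitted without the filter, CSF2, IL17A and CXCL17 did not pass (edgeR, adjusted p = 0.214, 0.125 and 0.973). CXCL2, a chemokine of the same receptor as CXCL8, was at 12.7, 85.2 and 332 CPM at the edge and 2.52, 4.14 and 6.12 in day 0 skin (log2FC 4.94 ± 0.70, adjusted p = 1.32e-04). CXCL8 and CXCL2 were lowest in the edge sample of animal 1326, wound A, and highest in the L wounds of animals 1326 and 1328, and wound L was above wound A in each of the 3 animals. CXCL8 was at 13.3 and 403 CPM in wounds A and L of animal 1326, at 108 and 166 CPM in those of animal 1327, and at 24.9 and 504 CPM in those of animal 1328. CSF3, the gene of G-CSF itself, was at 0.524, 2.3 and 12 CPM at the edge and 0.18, 0.503 and 1.71 in day 0 skin (log2FC 2.38 ± 0.78, adjusted p = 0.0243), with an adjusted p of 0.159 with the animal as a block and of 0.0671 without the edge sample of animal 1328, wound L, 0.0522 without that of 1326 L, 0.0501 without the day 0 sample of 1325 and 0.0507 without that of 1323.

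IL1B, the interleukin that starts much of the wound's inflammation, was left out of the test by the filter on low counts, since 1 edge sample held only 7 counts. Its edge samples held 7, 1170, 210, 188, 180 and 1052 counts (1326 A and L, 1327 A and L, 1328 A and L), and its day 0 samples between 0 and 2. All edge samples lay above all day 0 samples, from 0.398 to 63 CPM against 0 to 0.127 CPM. Pooled over the samples the ratio of edge to day 0 was 475, with a 95% interval of 218 to 1295 that covers counting error only. Fitted without the filter, the log2 fold change was 8.59 ± 1.16 (SE, edgeR, adjusted p = 6.97e-05). IL24, a cytokine of the interleukin-10 family that keratinocytes and macrophages make after injury, had 209 counts over the 6 edge samples and 1 over the 6 day 0 samples.

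Of the 12 tested genes of the interleukin-1 family and its inflammasome 6 rose and 1 fell (median 0.85). IL36A, an epidermal member, rose from 0 to 0.374 CPM in day 0 skin to 1.08 to 5.2 CPM (log2FC 3.99 ± 0.65, adjusted p = 3.40e-04). The count filter kept IL36A through its edge samples, which in part set its direction. NLRP3, the sensor of the inflammasome, rose from 0.839 to 2.35 CPM in day 0 skin to 8.08 to 19.5 CPM (log2FC 2.67 ± 0.30, adjusted p = 2.25e-05). CASP1, the protease that cuts interleukin-1 beta to its active form, rose from 0.888 to 2.57 CPM in day 0 skin to 2.74 to 12.5 CPM (2.14 ± 0.39). These 3 genes did not overlap between the groups. IL1RN, the receptor antagonist that blocks interleukin-1, also rose (log2FC 1.82 ± 0.31, adjusted p = 4.59e-04), as did IL33, an alarmin of the nuclei of epithelial and endothelial cells (log2FC 0.96 ± 0.21, adjusted p = 0.00249). IL1A, the interleukin-1 stored in keratinocytes, was at 10.7, 27.9 and 70.4 CPM at the edge and 10.1, 16.7 and 23.3 in day 0 skin and did not pass (log2FC 0.94 ± 0.39, adjusted p = 0.0633). Its adjusted p was 0.0282 without the edge sample of animal 1328, wound A, 0.0146 without that of 1326 A and 0.00565 with the wounds of an animal summed. IL36RN, the antagonist of the interleukin-36 receptor, was the member that fell (log2FC -1.19, adjusted p = 0.0264). It did not pass with the animal as a block (adjusted p = 0.0843), with the wounds of an animal summed (0.115) or on leaving out any 1 of 5 samples (0.0523 to 0.0663).

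In the list of interleukin-6, TNF and interleukin-10 families, 10 of 14 tested genes rose and 1 fell (median 1.56). IL6 was at 0.626, 4.85 and 26.5 CPM at the edge and 0, 0.175 and 0.914 in day 0 skin (log2FC 4.92 ± 1.07, adjusted p = 0.0025). OSM, oncostatin M, which loosens keratinocyte differentiation, was at 0.512, 2.82 and 10.2 CPM at the edge and 0, 0.233 and 1.03 in day 0 skin (log2FC 3.22 ± 0.84, adjusted p = 0.0071). Both groups overlapped for these scarce cytokines, while IL10, which damps macrophages, did not overlap (2.16, 4.84 and 8.51 CPM at the edge and 0, 0.692 and 0.856 in day 0 skin, log2FC 3.07 ± 0.51, adjusted p = 4.08e-04). SOCS3, the feedback inhibitor that STAT3 switches on, was at 34, 107 and 205 CPM at the edge and 11.3, 16.2 and 31.3 in day 0 skin (log2FC 2.62 ± 0.41, adjusted p = 2.77e-04), and STAT3 itself rose by 0.57 ± 0.09 on the log2 scale. TNF rose (log2FC 2.26 ± 0.39, adjusted p = 5.60e-04), and so did TNFRSF1B, the TNF receptor of leukocytes and vessels (18.3 to 34.5 CPM in day 0 skin and 109 to 246 CPM at the edge, log2FC 2.75 ± 0.22, adjusted p = 2.22e-06).

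Monocytes follow neutrophils and become wound macrophages. All 20 tested genes of the monocyte and macrophage list rose, all without overlap between the groups, with a median of 2.64. The count that rose was 17 with day 0 skin of the same 3 animals only and with all 150 samples in 1 fit. It was 18 with the wounds of an animal summed and without both libraries that stand apart, and none fell in these fits. The summed level of the list was 1696 to 3849 CPM at the edge and 315 to 554 CPM in day 0 skin. MSR1, a scavenger receptor, was at 37.3, 49.9 and 76.6 CPM at the edge and 0.779, 1.58 and 1.88 in day 0 skin (log2FC 5.09 ± 0.24, adjusted p = 1.13e-07). SPP1, osteopontin, was at 299, 469.6 and 1786 CPM at the edge and 6.79, 16.3 and 24.3 in day 0 skin (log2FC 5.32 ± 0.51, adjusted p = 7.73e-06), and its highest edge sample came from animal 1328, wound A. ARG1 was at 22.7, 146 and 295 CPM at the edge and 0, 0.923 and 1.78 in day 0 skin, from nearly nothing in day 0 skin. The general markers rose less. CD14, the lipopolysaccharide co-receptor of monocytes, rose by 2.68 ± 0.24, CD68 by 2.44 ± 0.24, CD163, the haemoglobin scavenger receptor, by 2.77 ± 0.33, and CSF1R, the receptor of the macrophage growth factor, by 1.54 ± 0.22. C1QA, a complement subunit of resident macrophages, changed least, from 38.6 to 83.5 CPM in day 0 skin to 86.5 to 133 CPM (log2FC 0.58 ± 0.20, adjusted p = 0.0307), with adjusted p between 0.0502 and 0.0693 when the day 0 sample of animal 1324, 1325 or 1328 or the edge sample of 1327 L or 1326 L was left out. Without both libraries that stand apart it was 0.0869.

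Chemokines that draw monocytes and lymphocytes rose in 8 of 13 tested genes and fell in 3 (median 3.07). The median was 1.51 without the edge sample of animal 1328, wound A, and 6 rose and 2 fell with the animal as a block. CCL2, the main monocyte chemokine, was at 43.6, 116 and 169.9 CPM at the edge and 4.25, 6.89 and 9.49 in day 0 skin (log2FC 3.92 ± 0.29, adjusted p = 1.42e-06). CCL5, a chemokine of T cells and natural killer cells, was at 25.6, 57.9 and 109.9 CPM at the edge and 2.82, 5.22 and 8.16 in day 0 skin (log2FC 3.42 ± 0.39, adjusted p = 2.47e-05). CCL4 was at 3.24, 20.8 and 25.7 CPM at the edge and 0.24, 0.677 and 1.6 in day 0 skin (log2FC 4.36 ± 0.54, adjusted p = 4.68e-05). The groups did not overlap for these 3 genes. CCL8 did not overlap either (log2FC 3.58 ± 0.72, adjusted p = 0.00142), but its adjusted p was 0.0593 with the animal as a block. Of the members that fell, CXCL14, which keratinocytes make at rest, fell from 452 to 809.7 CPM in day 0 skin to 254 to 439 CPM without overlap (log2FC -0.94 ± 0.15, adjusted p = 3.58e-04). CXCL12, the stromal chemokine that holds stem cells and leukocytes, fell by 0.74 ± 0.24, with an adjusted p of 0.0513 without the day 0 sample of animal 1323. CCL26, eotaxin-3, was the third (log2FC -1.48 ± 0.52, adjusted p = 0.0341). It did not pass with the animal as a block (adjusted p = 0.294) or on leaving out any 1 of 6 samples (0.055 to 0.0957). The count that fell was 1 without the day 0 sample of animal 1323.

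Of 19 tested T, NK and B lymphocyte genes 15 rose and none fell (median 2.53). IL7R, the interleukin-7 receptor of T cells, was at 9.56, 20.03 and 50.3 CPM at the edge and 0.637, 0.943 and 2.8 in day 0 skin (log2FC 4.16 ± 0.49, adjusted p = 3.08e-05). CD4 was at 2.1, 4.91 and 8.69 CPM at the edge and 0.0934, 0.336 and 1.03 in day 0 skin (log2FC 3.55 ± 0.54, adjusted p = 2.07e-04). CD2, an adhesion molecule of T cells, was at 4.61, 10.6 and 52.4 CPM at the edge and 1.27, 1.84 and 2.56 in day 0 skin (log2FC 3.17 ± 0.56, adjusted p = 5.97e-04). These 3 genes did not overlap between the groups. CD3E, a subunit of the T cell receptor complex, rose by 2.76 ± 0.48, CD8A by 2.59 ± 0.62, NKG7, of cytotoxic granules, by 2.79 ± 0.25, and JCHAIN, which joins antibody subunits in plasma cells, by 1.98 ± 0.50. The levels of most were low, with medians at the edge of 4.91 CPM for CD4, 6.65 for CD3E and 6.01 for CD8A. Of 7 tested genes of Langerhans and mast cells CD1E, a lipid-presenting molecule, rose and none fell. CD207, langerin, was at 0.683, 2.86 and 3.45 CPM at the edge and 1.07, 5.2 and 13.1 in day 0 skin (log2FC -1.18 ± 0.49, adjusted p = 0.0667), and its adjusted p was 0.0209 without the day 0 sample of animal 1326 and 0.0498 without that of 1323.

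Of 20 tested interferon-stimulated genes 19 rose and none fell (median 2.26), 14 of them without overlap. The edge sample of animal 1328, wound A, stood apart, with a summed level of 5045 CPM over the list, against 784 to 1327 CPM in the other 5 edge samples and 358 to 591 CPM in day 0 skin. Without it 19 of the 20 genes were still higher, and their median was 1.42. IFIT2, an antiviral protein that binds foreign RNA, was at 20.4, 36.3 and 196 CPM at the edge and 5.08, 6.14 and 7.31 in day 0 skin (log2FC 3.15 ± 0.52, adjusted p = 3.70e-04). MX2, an antiviral GTPase, was at 29.6, 59.9 and 345 CPM at the edge and 9.02, 12.1 and 20.3 in day 0 skin (log2FC 2.78 ± 0.54, adjusted p = 0.00123). ISG15, a ubiquitin-like protein, was at 32.7, 59.7 and 574 CPM at the edge and 8.83, 16.8 and 25 in day 0 skin (log2FC 2.97 ± 0.69, adjusted p = 0.00385). The adjusted p of ISG15 was 0.0567 with the animal as a block. CXCL10, the chemokine that interferon induces, was at 4.43, 9.39 and 359.9 CPM at the edge and 0.981, 3.48 and 4.42 in day 0 skin (log2FC 4.32 ± 1.16, adjusted p = 0.00859), the lowest edge sample just above the highest day 0 sample. Its level of 360 CPM in the same wound is the highest of the group, the other 5 edge samples lay between 4.43 and 18 CPM, and without that wound its log2 fold change was 1.51. With the animal as a block its adjusted p was 0.123.

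**Figure D3:**
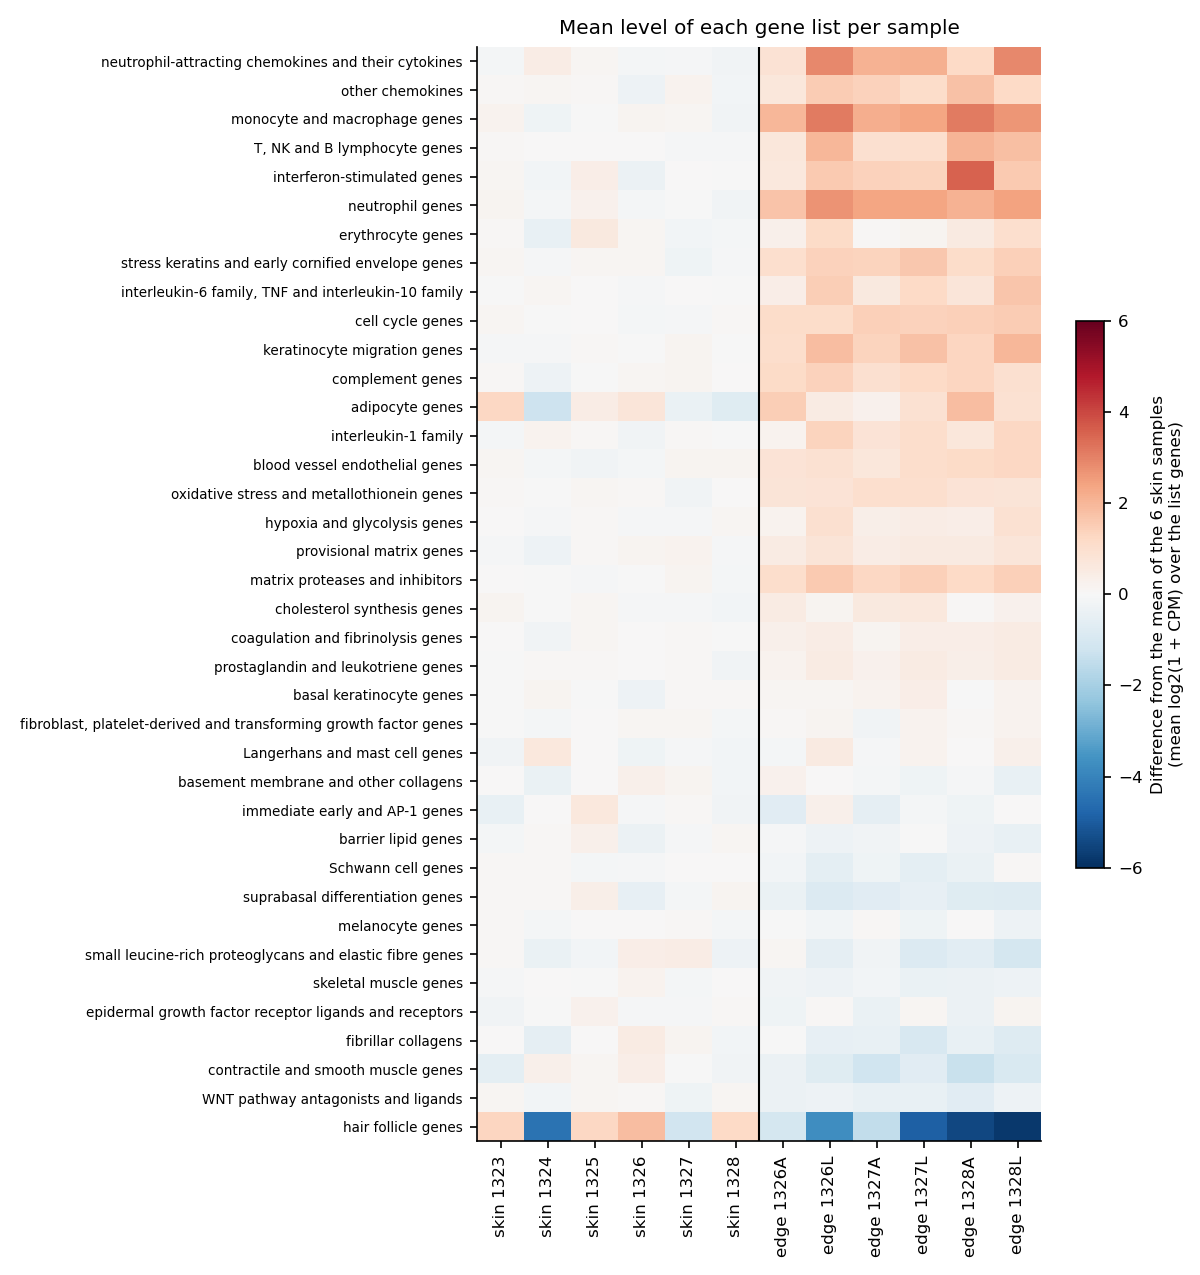
Each cell is the mean of log2(1 + CPM) over the genes of a list in 1 sample, minus the mean of the 6 day 0 samples, with the lists in rows and the 12 samples (animal and wound) in columns. The macrophage and neutrophil lists are higher in all 6 edge samples, the interferon list is highest in edge sample 1328A, and the hair follicle list is low in 4 edge samples and in the day 0 sample of animal 1324.

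In the lists of epidermal genes, 5 genes of the stress keratin and early envelope list rose while late differentiation genes fell in part. The source cells of these transcripts in the bulk biopsies were not tested. Only 11 of the 20 listed stress keratin and early envelope genes were found by name, and 9 were tested. Of these 9 genes 5 rose, all without overlap, and none fell (median 1.65). With all 150 samples in 1 fit 3 of 11 tested rose. KRT6C, a keratin that epidermis makes after injury, was at 4529, 6790.0 and 13739.7 CPM at the edge and 478, 899 and 995 in day 0 skin (log2FC 3.09 ± 0.30, adjusted p = 7.98e-06), and its mean share of all counts grew from 0.0806% to 0.741%, the largest gain of any named gene. KRT6B was at 574, 784 and 1414 CPM at the edge and 52.4, 175 and 244 in day 0 skin (log2FC 2.19 ± 0.35, adjusted p = 2.74e-04). The KRT6 genes are near-identical copies, so that reads may be split among them. SERPINB3, a protease inhibitor of squamous cells with close copies, rose from 0.263 to 3.31 CPM in day 0 skin to 19.2 to 97.1 CPM (4.72 ± 0.56). LCN2, an iron-binding antimicrobial protein, rose from 22.7 to 37.7 CPM in day 0 skin to 81.9 to 240.5 CPM (2.10 ± 0.24). S100A2 rose from 88.6 to 185 CPM in day 0 skin to 282 to 738 CPM (1.65 ± 0.25). IVL, involucrin, the first protein of the cornified envelope, was at 211, 314 and 479 CPM at the edge and 109, 219.6 and 286 in day 0 skin and did not pass (log2FC 0.53 ± 0.25, adjusted p = 0.102; 0.0478 without the day 0 sample of animal 1326).

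Of 20 tested suprabasal differentiation genes 10 fell and 1 rose (median -0.49), and 5 fell with the wounds summed and the animal as a block in 3 animals. KRT77, a keratin of sweat ducts and upper epidermis, was at 113, 279 and 460.4 CPM at the edge and 699.6, 1105 and 1779 in day 0 skin (log2FC -2.29 ± 0.32, adjusted p = 1.25e-04) with no overlap. SPINK5, the inhibitor of epidermal kallikreins, was at 329, 367 and 448 CPM at the edge and 547, 743 and 1161 in day 0 skin (log2FC -1.17 ± 0.16, adjusted p = 1.19e-04), also with no overlap, while FLG2, a filaggrin-like protein of the stratum corneum, overlapped (803, 931 and 1293 CPM at the edge and 1036, 2265 and 2870.5 in day 0 skin, log2FC -1.18 ± 0.20, adjusted p = 4.40e-04). RPTN, repetin, fell from 1.48 to 24.4 CPM in day 0 skin to 0 to 4.21 CPM (log2FC -3.60 ± 1.01, adjusted p = 0.011). LY6G6C fell by 1.26 ± 0.16. KLK7, a kallikrein that sheds corneocytes, was the member that rose, from 134 to 425 CPM in day 0 skin to 314 to 806 CPM (log2FC 1.08 ± 0.27, adjusted p = 0.0054). KRT10, the chief keratin of the spinous layer, differed by less than its spread. It was at 16103, 17448 and 19286 CPM at the edge and 8890.4, 18069 and 27617 in day 0 skin (log2FC -0.18 ± 0.19, adjusted p = 0.439), and the day 0 samples spanned a wider range than the edge samples.

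Of 15 tested basal keratinocyte genes 5 rose and 3 fell (median 0.22), shares that lie near those of all genes. KRT15, a keratin of basal cells and the follicle bulge, was at 8472, 10269 and 16606 CPM at the edge and 4894, 5671 and 7620.2 in day 0 skin (log2FC 0.83 ± 0.16, adjusted p = 0.00122), and its share of the counts grew from 0.58% to 1.1%. CDH3, P-cadherin of basal cells, rose from 45.5 to 71.9 CPM in day 0 skin to 77.8 to 155 CPM (log2FC 0.92 ± 0.17, adjusted p = 7.47e-04). ITGA6, of the hemidesmosome integrin, rose from 221 to 421 CPM in day 0 skin to 506 to 659 CPM (0.55 ± 0.13). None of these 3 overlapped, and none passed with all 150 samples in 1 fit (adjusted p = 0.530 for KRT15, 0.353 for CDH3 and 0.155 for ITGA6). KRT5, the partner keratin of basal cells, was at 9195, 10190.2 and 13573 CPM at the edge and 5966, 8139 and 10627 in day 0 skin (log2FC 0.31 ± 0.15, adjusted p = 0.0974) and reached an adjusted p of 0.013 with the animal as a block and of 0.0479 without the day 0 sample of animal 1324. FGFR2, the keratinocyte receptor for FGF7 and FGF10, fell by 0.75 ± 0.12 (adjusted p = 2.68e-04; 0.0696 with the wounds summed and the animal as a block).

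In the list of keratinocyte migration genes 14 of 21 tested rose and 1 fell (median 1.02). Against the center of the same wounds 10 were higher at the edge and 3 lower (median 1.03). Which cells made these transcripts was not tested. TNC, tenascin C, an anti-adhesive matrix protein, was at 395, 523 and 817 CPM at the edge and 27.6, 44.3 and 56.8 in day 0 skin (log2FC 3.5 ± 0.23, adjusted p = 7.80e-07). MMP9, the gelatinase of neutrophils and moving keratinocytes, was at 112, 213 and 354 CPM at the edge and 2.19, 3.04 and 5.77 in day 0 skin (log2FC 6.00 ± 0.33, adjusted p = 2.30e-07). HBEGF, a growth factor shed by keratinocytes at the wound margin, was at 17.4, 41.2 and 96.9 CPM at the edge and 4.44, 10.6 and 16.8 in day 0 skin (log2FC 2.19 ± 0.46, adjusted p = 0.00195). All 3 were free of overlap. FSCN1, fascin of cell protrusions, rose by 1.64 ± 0.18, ITGA5, of the fibronectin receptor, by 1.39 ± 0.19, and VIM, vimentin, by 1.02 ± 0.16. ITGA2, of the collagen receptor, fell from 70.04 to 110.4 CPM in day 0 skin to 40.8 to 69 CPM (log2FC -0.83 ± 0.15, adjusted p = 6.98e-04).

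Receptors and ligands of the EGF family split. Of 10 tested genes 2 rose and 6 fell (median -0.69). HBEGF and NRG1, neuregulin 1, rose (NRG1 from 2.3 to 5.65 CPM in day 0 skin to 4.66 to 26.2 CPM, log2FC 1.82 ± 0.38, adjusted p = 0.00204). EREG, epiregulin, fell from 42.8 to 59.7 CPM in day 0 skin to 15.8 to 29.1 CPM (log2FC -1.28 ± 0.14, adjusted p = 1.74e-05). ERBB3, the receptor of neuregulins, fell from 266 to 357 CPM in day 0 skin to 153 to 195 CPM (log2FC -0.87 ± 0.10, adjusted p = 2.53e-05). Neither gene overlapped between the groups, and neither passed with all 150 samples in 1 fit (adjusted p = 0.114 for EREG and 0.121 for ERBB3). EGFR itself fell by 0.50 ± 0.08 (adjusted p = 2.42e-04; 0.068 with the wounds summed and the animal as a block). AREG, amphiregulin, was at 9.27, 17.7 and 43.1 CPM at the edge and 3.71, 15.6 and 18.7 in day 0 skin and did not pass (log2FC 0.46 ± 0.42, adjusted p = 0.387). BTC, betacellulin, also fell (log2FC -1.12 ± 0.42, adjusted p = 0.0452), and its adjusted p was 0.106 with the animal as a block and between 0.0723 and 0.122 on leaving out any 1 of 8 of the 12 samples.

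Immediate early and AP-1 genes, which cells switch on within minutes of a stimulus, were lower at the edge in 8 of 19 tested genes and higher in 3 (median -0.26). FOSB was at 4.44, 10.8 and 52 CPM at the edge and 24.8, 116 and 275 in day 0 skin (log2FC -2.90 ± 0.63, adjusted p = 0.00254). EGR1 was at 26.8, 50.5 and 95.3 CPM at the edge and 72.3, 145 and 258 in day 0 skin (log2FC -1.53 ± 0.32, adjusted p = 0.00215). JUN fell from 241 to 396 CPM in day 0 skin to 127 to 199 CPM without overlap (log2FC -0.89 ± 0.14, adjusted p = 2.19e-04). FOS overlapped (log2FC -1.67 ± 0.45, adjusted p = 0.00858), with an adjusted p of 0.0516 with the animal as a block. In the opposite direction FOSL1, an AP-1 member of moving keratinocytes, was at 9.96, 25.6 and 34.2 CPM at the edge and 0.359, 0.876 and 3.08 in day 0 skin (log2FC 3.93 ± 0.51, adjusted p = 6.61e-05). BATF, an AP-1 member of leukocytes, rose by 1.86 ± 0.42 (adjusted p = 0.0825 with the wounds summed and the animal as a block).

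Of 19 tested barrier lipid genes 2 rose and 4 fell (median -0.35), with 10 that fell without the day 0 sample of animal 1326 and 7 without the edge sample of 1327 L. The share that fell, 21.1%, lies near the 22.7% of all genes, and 10.5% rose against 23.0% of all genes. SPTLC3, of sphingolipid synthesis, fell from 153 to 267 CPM in day 0 skin to 82 to 124 CPM (log2FC -1.17 ± 0.12, adjusted p = 1.39e-05). PNPLA1, needed for the ceramides of the barrier, fell from 27.4 to 46.2 CPM in day 0 skin to 15.8 to 23.4 CPM (log2FC -0.96 ± 0.12, adjusted p = 6.44e-05). Of 21 tested cholesterol synthesis genes 5 rose and 1 fell (median 0.36), with 9 that rose when scaled by library totals alone and 8 with the animal as a block. Here the share that rose, 23.8%, lies near the 23.0% of all genes, and 4.76% fell. HSD17B7, a late enzyme of the pathway, rose from 11.8 to 26.5 CPM in day 0 skin to 37.4 to 69.8 CPM (log2FC 1.19 ± 0.22, adjusted p = 9.75e-04).

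Hair follicle genes had the lowest median of all 38 lists, -3.31, yet only 10 of the 21 tested genes passed, all lower, and in 1 of them were the groups free of overlap. The levels varied widely within both groups. The summed level of the list was 4678 and 931 CPM in wounds A and L of animal 1326, 2155 and 113 CPM in those of animal 1327, and 54.2 and 39.1 CPM in those of animal 1328. In day 0 skin it was 15801, 142, 16860, 22837, 5775 and 16755 CPM in animals 1323 to 1328. Without both libraries that stand apart, 18 of the 21 genes were lower, with a median of -4.54. On leaving out 1 library the count was 6 without the day 0 sample of animal 1326 or the edge sample of 1328 A, and it was 7 with the animal as a block and 5 with the wounds of an animal summed. Their part in the other results, through the share of follicle in a biopsy, was not tested.

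KRT27 was at 0.367, 14.8 and 1357 CPM at the edge and 6.57, 4729 and 6357 in day 0 skin (log2FC -3.62 ± 1.74, adjusted p = 0.105) and did not pass. Its mean share of the counts was 0.386% in day 0 skin and 0.0329% at the edge. Its adjusted p was 0.0471 without the edge sample of animal 1326, wound A, and 0.0254 without both libraries that stand apart. KRT71, a further keratin of the inner root sheath, was at 0, 9.51 and 1231 CPM at the edge and 10.05, 4257 and 5729 in day 0 skin (log2FC -3.59 ± 1.82, adjusted p = 0.124; 0.0392 without both libraries that stand apart). KRT28, of the same layer, passed (0, 0.169 and 6.18 CPM at the edge and 0.285, 39.4 and 60.4 in day 0 skin, log2FC -4.40 ± 1.18, adjusted p = 0.00838). With the wounds summed and the animal as a block its adjusted p was 0.0743. Both transcription factors of the follicle named here passed. LHX2, of follicle stem cells, was at 0.539, 9.64 and 20.6 CPM at the edge and 26.5, 41.1 and 61.1 in day 0 skin (log2FC -2.17 ± 0.51, adjusted p = 0.00408) with no overlap, and FOXN1, of differentiating hair and epidermis, was at 21.9, 25.8 and 51.9 CPM at the edge and 30.8, 92 and 138 in day 0 skin (log2FC -1.53 ± 0.37, adjusted p = 0.00484). The list of WNT ligands and antagonists, a pathway that drives the hair cycle, fell in 14 of 21 tested genes and rose in 2 (median -0.91), with 9 that fell when the wounds were summed with the animal as a block in 3 animals. AXIN2, a target gene of the pathway, fell from 23.4 to 35.7 CPM in day 0 skin to 12.7 to 23.9 CPM (log2FC -0.91 ± 0.17, adjusted p = 7.84e-04). WNT11 fell from 2.17 to 24.6 CPM in day 0 skin to 0.524 to 6.77 CPM (log2FC -2.68 ± 0.67, adjusted p = 0.00582; 0.11 with the wounds summed and the animal as a block). The members that rose were secreted antagonists. SFRP4 was at 60.1, 118 and 181 CPM at the edge and 9.36, 15.4 and 34.3 in day 0 skin (log2FC 2.60 ± 0.36, adjusted p = 1.13e-04) without overlap. SFRP2 was at 19.8, 84.7 and 329 CPM at the edge and 7.91, 14.9 and 24.2 in day 0 skin (log2FC 2.73 ± 0.57, adjusted p = 0.0020), with an adjusted p of 0.0684 with the animal as a block.

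**Figure D4:**
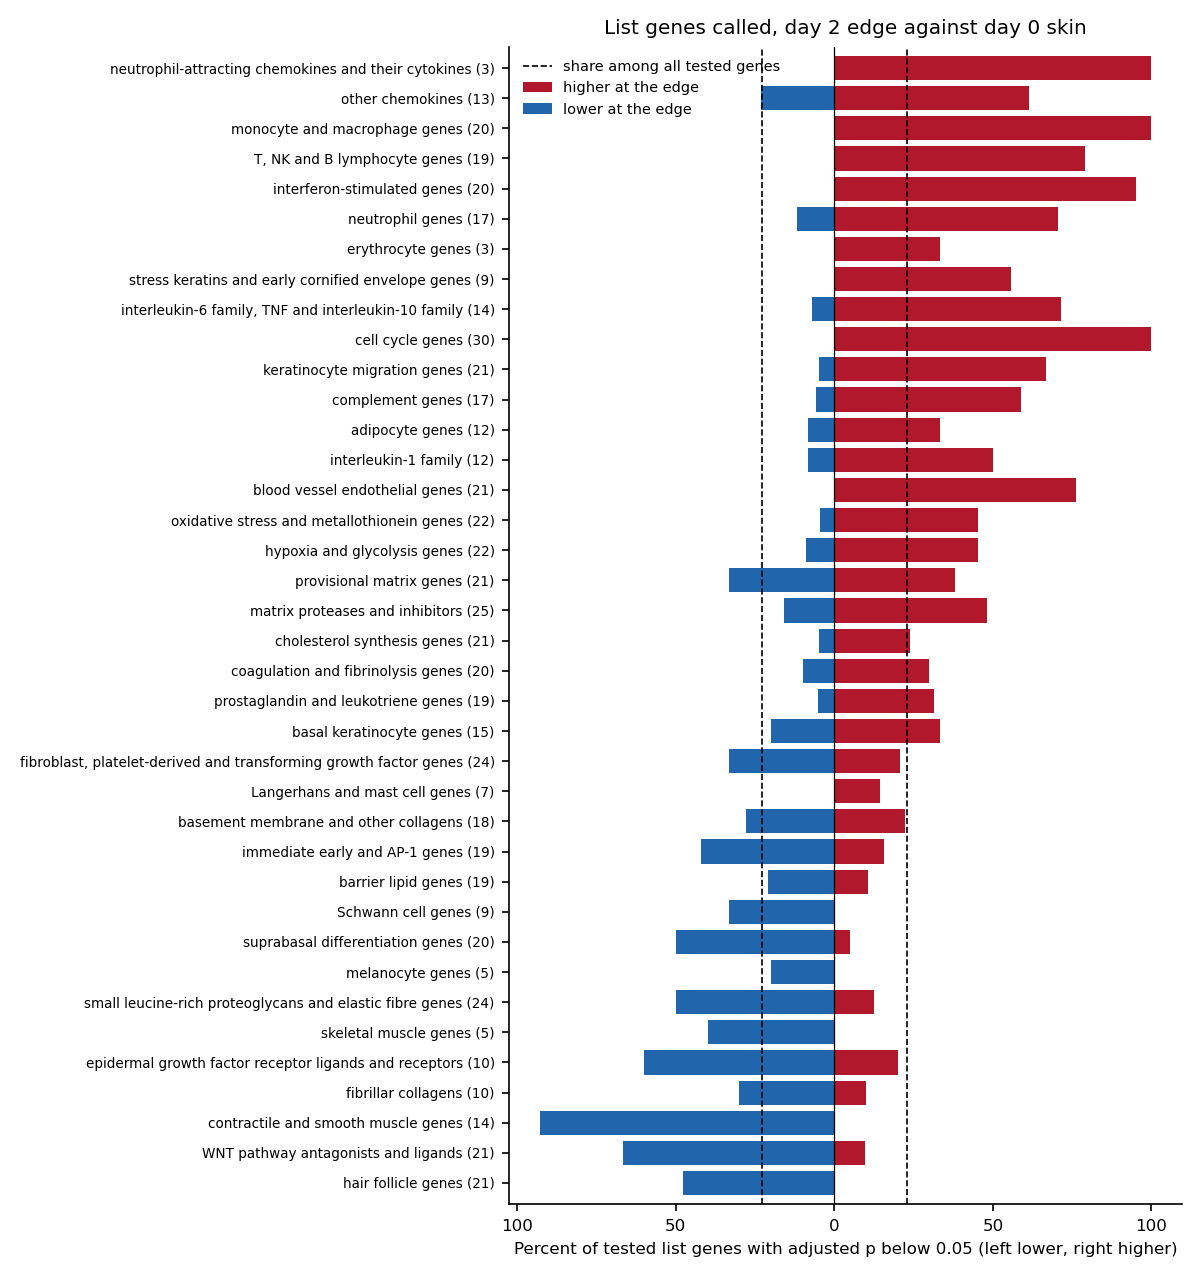
For each of the 38 gene lists, bars give the percent of tested genes that were higher (red, to the right) or lower (blue, to the left) at the day 2 edge than in day 0 skin, with the number tested in brackets and dashed lines at the shares among all 14865 genes, 23.0% and 22.7%. The macrophage, cell cycle and neutrophil-attracting lists reach the full length on the right, and the contractile list is the longest bar on the left. The neutrophil-attracting bar rests on 3 tested genes of 6 found.

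Genes of the dermal matrix were called in both directions. Among 10 tested fibrillar collagens 3 fell and 1 rose (median -0.80). The share that fell, 30%, is not far from the 22.7% of all genes, and 10% rose against 23.0% of all genes. COL3A1 was at 5127, 11814 and 17717 CPM at the edge and 13963, 20455 and 36706 in day 0 skin (log2FC -1.17 ± 0.34, adjusted p = 0.0131), and its share of the counts fell from 2.38% to 1.14%. COL1A2 was at 3599.6, 9122 and 15829.6 CPM at the edge and 10118, 16848 and 33891 in day 0 skin (log2FC -1.20 ± 0.41, adjusted p = 0.0275), with adjusted p from 0.0543 to 0.0697 without the day 0 sample of animal 1326 or 1327 or the edge sample of 1327 L or 1328 A. COL1A1 was at 5723, 13274 and 22132 CPM at the edge and 12313, 19115 and 43542 in day 0 skin and did not pass (log2FC -0.97 ± 0.40, adjusted p = 0.0641). Its adjusted p was 0.0165 with the animal as a block, 0.0393 without the day 0 sample of animal 1324 and 0.0325 without the edge sample of 1326 A. COL11A1, a minor fibrillar collagen, fell from 6.45 to 42 CPM in day 0 skin to 1.08 to 7.28 CPM (log2FC -2.91 ± 0.55, adjusted p = 9.68e-04). In all these genes the groups overlapped. The number of fibrillar collagens that fell was 5 with the animal as a block, without the day 0 sample of animal 1324 and without the edge sample of 1326 A. Of 18 tested basement membrane and other collagens 4 rose and 5 fell, near the shares of all genes, and 2 fell without the edge sample of 1328 L or of 1328 A. COL4A1, of every basement membrane, was at 639, 945 and 1232 CPM at the edge and 289, 446 and 619 in day 0 skin (log2FC 0.99 ± 0.21, adjusted p = 0.00229) with no overlap, and COL15A1, around vessels, rose by 1.03 ± 0.26.

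Small leucine-rich proteoglycans and elastic fibre genes fell in 12 of 24 tested genes and rose in 3 (median -0.59), with 14 and 1 with the animal as a block. LTBP4, which stores TGF beta on elastic fibres, was at 135, 204 and 258 CPM at the edge and 412, 458 and 618 in day 0 skin (log2FC -1.36 ± 0.17, adjusted p = 6.20e-05). MFAP5, of microfibrils, fell from 48 to 90.4 CPM in day 0 skin to 8.15 to 43.1 CPM (log2FC -1.65 ± 0.39, adjusted p = 0.00382). Neither overlapped. LOX, which cross-links collagen and elastin, was at 67, 123 and 260.1 CPM at the edge and 206, 255 and 653 in day 0 skin (log2FC -1.31 ± 0.39, adjusted p = 0.0154) and overlapped. FBN1, fibrillin 1, rose by 0.79 ± 0.21 (adjusted p = 0.0088). SPARC, a collagen-binding matrix protein, was at 2013, 3975 and 6771 CPM at the edge and 6739, 8353 and 14910.1 in day 0 skin (log2FC -1.39 ± 0.31, adjusted p = 0.00319) and its share dropped from 0.996% to 0.409%.

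Genes of the provisional matrix, laid down as a first scaffold in a wound, rose in 8 and fell in 7 of 21 tested genes (median 0.44), and in 5 and 6 with the animal as a block. PTX3, a pattern recognition protein that joins hyaluronan matrix, was at 27.7, 58.8 and 275 CPM at the edge and 4.94, 6.18 and 9.76 in day 0 skin (log2FC 3.78 ± 0.48, adjusted p = 5.91e-05). HAS2, a hyaluronan synthase, rose from 3.65 to 7.47 CPM in day 0 skin to 10.4 to 25.8 CPM (log2FC 1.47 ± 0.27, adjusted p = 8.57e-04). VCAN, the proteoglycan versican, rose from 58 to 93.1 CPM in day 0 skin to 143 to 286 CPM (log2FC 1.44 ± 0.20, adjusted p = 1.31e-04). These 3 genes did not overlap. POSTN, periostin, was lower at the edge, at 1064, 1747 and 3318 CPM at the edge and 2736, 3656 and 6257 in day 0 skin (log2FC -1.17 ± 0.30, adjusted p = 0.00741). THBS1, thrombospondin 1, rose (log2FC 1.17 ± 0.27, adjusted p = 0.00331), with an adjusted p of 0.0626 with the animal as a block.

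Matrix proteases and their inhibitors rose in 12 and fell in 4 of 25 tested genes (median 0.39). MMP13, a collagenase, was at 8.44, 21.9 and 71.6 CPM at the edge and 0, 0.406 and 0.628 in day 0 skin (log2FC 6.35 ± 0.74, adjusted p = 2.94e-05). The count filter kept MMP13 through its edge samples, which in part set its direction. ADAM8, a membrane protease of leukocytes, was at 35.6, 76.3 and 149 CPM at the edge and 3.74, 6.05 and 9.93 in day 0 skin (log2FC 3.61 ± 0.32, adjusted p = 3.79e-06). TIMP1, the inhibitor that binds MMP9, was at 195, 370.2 and 385 CPM at the edge and 26.2, 29 and 34.6 in day 0 skin (log2FC 3.39 ± 0.17, adjusted p = 1.65e-07). No edge sample of these 3 reached down to a day 0 sample. MMP12, the elastase of macrophages, rose with overlap (0.0526 to 4.51 CPM in day 0 skin and 2.96 to 33.1 CPM at the edge, log2FC 3.46 ± 0.84, adjusted p = 0.00475). TIMP3, an inhibitor bound to matrix, fell from 38.6 to 93.8 CPM in day 0 skin to 12.8 to 42 CPM (log2FC -1.39 ± 0.29, adjusted p = 0.00173). Of 20 tested coagulation and fibrinolysis genes 6 rose and 2 fell (median 0.25). The share that rose, 30%, is not far from the 23.0% of all genes, and 10% fell against 22.7% of all genes. PLAU, urokinase, rose from 24.3 to 45.9 CPM in day 0 skin to 90.6 to 197 CPM (log2FC 1.78 ± 0.18, adjusted p = 1.30e-05). Its receptor PLAUR rose from 5.75 to 12.1 CPM in day 0 skin to 16.6 to 61 CPM (log2FC 2.14 ± 0.31, adjusted p = 1.61e-04). F13A1, the clot cross-linker that macrophages make, rose from 42.7 to 98.6 CPM in day 0 skin to 179.9 to 379 CPM (log2FC 1.65 ± 0.22, adjusted p = 9.16e-05). F3, tissue factor, fell by 0.77 ± 0.16 (adjusted p = 0.00187).

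Genes of contractile and smooth muscle cells fell together. Of 14 tested 13 fell and none rose (median -0.86), with overlap in all but 1. MYH11, smooth muscle myosin, was at 81.4, 126 and 271 CPM at the edge and 286, 342 and 532 in day 0 skin (log2FC -1.55 ± 0.29, adjusted p = 9.95e-04), the 1 without overlap. ACTG2 was at 37.4, 77.6 and 195 CPM at the edge and 109, 342 and 504 in day 0 skin (log2FC -1.88 ± 0.43, adjusted p = 0.00323). CNN1, calponin, was at 15.4, 29.5 and 63.1 CPM at the edge and 55.7, 112 and 171 in day 0 skin (log2FC -1.85 ± 0.35, adjusted p = 0.00107). ACTA2, the actin of vessel walls, arrector muscles and myofibroblasts, was at 184, 247 and 386 CPM at the edge and 287, 393 and 576 in day 0 skin (log2FC -0.75 ± 0.21, adjusted p = 0.0127).

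Of 21 tested genes of blood vessel endothelium 16 rose and none fell (median 0.77), 11 without overlap. The counts were 9 with day 0 skin of the same 3 animals only and 10 with the wounds summed and the animal as a block. The largest rises were adhesion molecules on which leukocytes roll and stop. SELP, P-selectin, was at 5.29, 10.6 and 28.5 CPM at the edge and 0.40, 1.06 and 2.58 in day 0 skin (log2FC 3.24 ± 0.46, adjusted p = 1.23e-04). SELE, E-selectin, was at 14.6, 21.2 and 48.5 CPM at the edge and 1.67, 3.19 and 4.78 in day 0 skin (log2FC 2.89 ± 0.32, adjusted p = 2.11e-05). VCAM1 was at 99.2, 129 and 199 CPM at the edge and 25.7, 34.5 and 38.4 in day 0 skin (log2FC 1.92 ± 0.17, adjusted p = 3.82e-06). ICAM1 was at 37.4, 53.3 and 74.3 CPM at the edge and 11.6, 14 and 17.7 in day 0 skin (log2FC 1.80 ± 0.17, adjusted p = 5.70e-06). None of the 4 overlapped. PECAM1, of all endothelium, rose less, from 125 to 206 CPM in day 0 skin to 293 to 370.2 CPM (log2FC 0.92 ± 0.12, adjusted p = 6.29e-05).

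Glycolysis and hypoxia genes rose in 10 and fell in 2 of 22 tested genes (median 0.46). SLC16A3, the lactate exporter MCT4, was at 9.57, 14 and 53.7 CPM at the edge and 1.6, 2.57 and 4.59 in day 0 skin (log2FC 2.85 ± 0.45, adjusted p = 2.55e-04). SLC2A3, a glucose transporter of leukocytes, was at 27.8, 86.4 and 309 CPM at the edge and 13.1, 17 and 26 in day 0 skin (log2FC 2.55 ± 0.48, adjusted p = 9.83e-04). LDHA, lactate dehydrogenase, rose from 174 to 282 CPM in day 0 skin to 399 to 813 CPM (log2FC 1.39 ± 0.16, adjusted p = 3.13e-05). ENO1, enolase, rose from 421 to 518 CPM in day 0 skin to 827 to 1297 CPM (log2FC 1.07 ± 0.10, adjusted p = 4.61e-06). All 4 were without overlap. HIF1A, the oxygen-regulated factor, rose by 0.62 ± 0.11 (adjusted p = 6.47e-04), while VEGFA, its target and the main vessel growth factor, was at 28, 42.4 and 75 CPM at the edge and 18.6, 36 and 37.5 in day 0 skin (log2FC 0.50 ± 0.26, adjusted p = 0.135) and did not pass. The number that fell was 4 without the edge sample of animal 1326, wound L.

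Oxidative stress genes rose in 10 and fell in 1 of 22 tested genes (median 0.54). HMOX1, heme oxygenase 1, was at 229, 327 and 529 CPM at the edge and 8.91, 18.9 and 24.9 in day 0 skin (log2FC 4.19 ± 0.31, adjusted p = 1.42e-06). SOD2, the superoxide dismutase of mitochondria, was at 541, 761 and 1490.4 CPM at the edge and 95, 105 and 124 in day 0 skin (log2FC 2.91 ± 0.21, adjusted p = 1.32e-06). GPX1, a glutathione peroxidase, was at 277, 426 and 707 CPM at the edge and 52.2, 72.3 and 155 in day 0 skin (log2FC 2.38 ± 0.26, adjusted p = 2.01e-05). For each of them the groups were far apart. FTH1, the iron store ferritin heavy chain, was at 2309, 3116 and 3480.3 CPM at the edge and 1019.6, 1135 and 1369.6 in day 0 skin (log2FC 1.25 ± 0.11, adjusted p = 2.85e-06), and its share of the counts rose from 0.117% to 0.30%. It is listed under 6 identifiers. NQO1, a target of the NRF2 pathway, overlapped (38.2, 130.2 and 409.8 CPM at the edge and 17.6, 38.1 and 52.4 in day 0 skin, log2FC 2.13 ± 0.61, adjusted p = 0.0119) and had an adjusted p of 0.222 with the animal as a block. Of 19 tested prostaglandin and leukotriene genes 6 rose and 1 fell (median 0.24), and 2 rose and 2 fell with the wounds summed and the animal as a block in 3 animals. In the main fit 31.6% rose and 5.26% fell, against 23.0% and 22.7% of all genes. TBXAS1, thromboxane synthase, was at 8.76, 11.4 and 20.8 CPM at the edge and 0.839, 1.47 and 2.63 in day 0 skin (log2FC 2.95 ± 0.31, adjusted p = 1.39e-05). HPGD, which breaks prostaglandins down, was the member that fell (log2FC -0.91 ± 0.19, adjusted p = 0.00163).

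Complement genes rose in 10 and fell in 1 of 17 tested genes (median 0.99). CFB, factor B of the alternative pathway, was at 8.63, 16.5 and 30.8 CPM at the edge and 0.764, 1.17 and 2.1 in day 0 skin (log2FC 3.63 ± 0.36, adjusted p = 8.59e-06). C3 was at 53.4, 158 and 266 CPM at the edge and 16.3, 23.7 and 39.2 in day 0 skin (log2FC 2.48 ± 0.40, adjusted p = 2.98e-04). C2 was at 37.4, 52.1 and 98.3 CPM at the edge and 3.71, 7.41 and 11.1 in day 0 skin (log2FC 2.82 ± 0.29, adjusted p = 1.24e-05). C5AR1, the receptor by which C5a draws neutrophils, was at 52.9, 83.2 and 124 CPM at the edge and 5.82, 9.89 and 12.3 in day 0 skin (log2FC 3.07 ± 0.24, adjusted p = 1.73e-06). The groups did not overlap in these 4. Of 24 tested FGF, PDGF and TGF beta family genes 5 rose and 8 fell (median 0.02), and 3 and 7 with the animal as a block. The share that rose, 20.8%, lies near the 23.0% of all genes, and 33.3% fell against 22.7% of all genes. TGFB1, which platelets and macrophages release, was at 71.5, 93.9 and 143 CPM at the edge and 26.6, 30.0 and 38.6 in day 0 skin (log2FC 1.63 ± 0.16, adjusted p = 9.76e-06). PDGFRA and PDGFRB, receptors of fibroblasts and pericytes, rose by 0.92 ± 0.17 and 0.75 ± 0.18. BMP2 fell from 24 to 37.7 CPM in day 0 skin to 10.2 to 15.4 CPM (log2FC -1.44 ± 0.15, adjusted p = 1.40e-05). BMP4, a signal of the follicle's dermal papilla, fell from 8.34 to 31.6 CPM in day 0 skin to 6.42 to 13.7 CPM (log2FC -1.38 ± 0.30, adjusted p = 0.00249). INHBA, of activin A, rose (log2FC 1.65 ± 0.42, adjusted p = 0.00618), with an adjusted p of 0.0876 with the animal as a block.

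All 30 tested cell cycle genes rose, 27 of them without overlap (median 1.30), and the summed level of the list was 1572 to 2061 CPM at the edge against 693 to 829 CPM in day 0 skin. CCNB1, cyclin B1 of mitosis, was at 46.4, 63.1 and 73.9 CPM at the edge and 12.7, 14.6 and 16.5 in day 0 skin (log2FC 1.94 ± 0.12, adjusted p = 7.80e-07). BIRC5, survivin, was at 24.7, 33.3 and 36.2 CPM at the edge and 7.58, 8.07 and 8.91 in day 0 skin (log2FC 1.83 ± 0.11, adjusted p = 4.51e-07). MKI67, the marker of cycling cells, was at 112, 124 and 145 CPM at the edge and 30.3, 41.8 and 56.6 in day 0 skin (log2FC 1.41 ± 0.15, adjusted p = 1.81e-05). The spread within each group was small beside the difference. PCNA, of DNA replication, rose less, from 48.7 to 69.3 CPM in day 0 skin to 105 to 134 CPM (log2FC 0.99 ± 0.09, adjusted p = 3.33e-06). Which cells were dividing cannot be read from bulk tissue.

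Other cell types gave smaller counts. Of 12 tested adipocyte genes 4 rose and 1 fell (median 0.89), with 7 that rose without the day 0 sample of animal 1323. In the main fit 33.3% rose and 8.33% fell, against 23.0% and 22.7% of all genes. LPL, lipoprotein lipase, was at 177, 344 and 679 CPM at the edge and 51, 138 and 236 in day 0 skin (log2FC 1.25 ± 0.37, adjusted p = 0.014). ADIPOQ, adiponectin, was at 249, 432 and 946 CPM at the edge and 51.6, 273 and 882 in day 0 skin and did not pass (log2FC 0.47 ± 0.59, adjusted p = 0.533). The summed level of the list, 1317 to 2981 CPM at the edge and 376 to 2086 CPM in day 0 skin, overlapped. Of 9 tested Schwann cell genes 3 fell, 5 without both libraries that stand apart, and of 5 melanocyte genes 1 fell. These shares, 33.3% and 20% in the main fit, stand against 22.7% of all genes. The melanocyte gene that fell was MITF, the melanocyte transcription factor (log2FC -0.53 ± 0.20, adjusted p = 0.0435). MITF did not pass with the animal as a block (0.0856) or on leaving out any 1 of 10 samples (0.0505 to 0.102). Skeletal muscle genes were near absent in both groups, at 8.84 to 12.4 CPM at the edge and 13.8 to 26.2 CPM in day 0 skin in sum, and 2 of 5 tested fell. The 6 erythrocyte genes found summed to 6.29 to 66.1 CPM at the edge and 0.914 to 20.8 CPM in day 0 skin, and 1 of the 3 tested rose. That gene was HBB, beta globin (log2FC 2.08 ± 0.76, adjusted p = 0.0393), which did not pass with the wounds summed (0.0642) or on leaving out any 1 of 7 samples (0.0541 to 0.109). The part of blood in the rise of the leukocyte genes was not tested.

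The edge was then set beside the other biopsy of the same wounds, the center on day 2. The paper names 1 day 2 center sample among those that depart from their replicates, and all 6 were used here. Leaving out any 1 sample gave 2299 to 2837 genes higher and 2124 to 2653 lower at the edge. The tissue that each center biopsy held was not tested. Of 14652 genes tested 2606 were higher at the edge (17.8%) and 2592 lower (17.7%). Of 18 tested suprabasal genes all 18 were higher at the edge (median log2 fold change 8.51), as were 13 of 15 basal genes (median 5.75) and 11 of 11 tested hair follicle genes. The count filter had left 11 of the 21 hair follicle genes found. It keeps genes that are high in 1 group alone, which in part sets the direction of those kept. KRT10 was at 11.6 to 115 CPM in the center against 16103 to 19286 CPM at the edge, and KRT6C at 6.04 to 55.9 against 4529 to 13739.7 CPM. Of 20 macrophage genes 4 were lower at the edge and none higher, and of 17 neutrophil genes 4 were higher and 2 lower. S100A9 was higher at the edge by 2.49 ± 0.35 (adjusted p = 1.03e-04) and CXCL8 did not pass (-1.14 ± 0.98, adjusted p = 0.396). MMP1 was at 3.23 to 12.2 CPM in the center (5.32 ± 0.46, adjusted p = 1.58e-06), and MMP13 was higher at the edge by 7.23 ± 0.91 (adjusted p = 4.17e-05). Endothelial genes were lower at the edge in 18 of 21, and adipocyte genes in 10 of 12. PTX3, SOD2 and CCL2, which rose against day 0 skin, were lower at the edge than in the center, with log2 fold changes of -3.30 ± 0.61, -1.81 ± 0.27 and -1.85 ± 0.41. Of 12 skeletal muscle genes found the filter kept 5, and all 5 were lower at the edge than in the center (median -8.13). Both comparisons use the same 6 edge samples.

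Against the edge on day 4, from 2 other wounds (F and G) of the same 3 animals, few genes passed the test. Of 14702 tested 7 were higher on day 2 (0.0476%) and 41 were lower (0.279%), with 2246 at an unadjusted p below 0.05, and DESeq2 gave 182 and 582. These counts rest on single libraries, since no gene passed without the day 2 sample of wound 1326 L, 1327 A or 1328 A or the day 4 sample of 1326 F, while 44 and 132 passed without the day 4 sample of 1328 G and 41 and 232 without that of 1327 G. Of these 41 genes, MASP1, a complement protease, had a mean of 16.0 CPM on day 2 and 71.0 CPM on day 4 (log2 fold change -2.20 ± 0.40 SE, adjusted p = 0.0464), LOXL1, a cross-linker of elastin, 38.2 and 111 CPM (-1.59 ± 0.29), and PDGFRB 236 and 433 CPM (-0.92 ± 0.14). Of the 17 tested neutrophil genes, the 20 macrophage genes, the 9 stress keratin and envelope genes and the 30 cell cycle genes, none passed in either direction. KRT6C was at 5925 to 19896 CPM on day 4 and S100A9 at 94.3 to 1051 CPM, so that both groups overlapped.

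**Figure D5:**
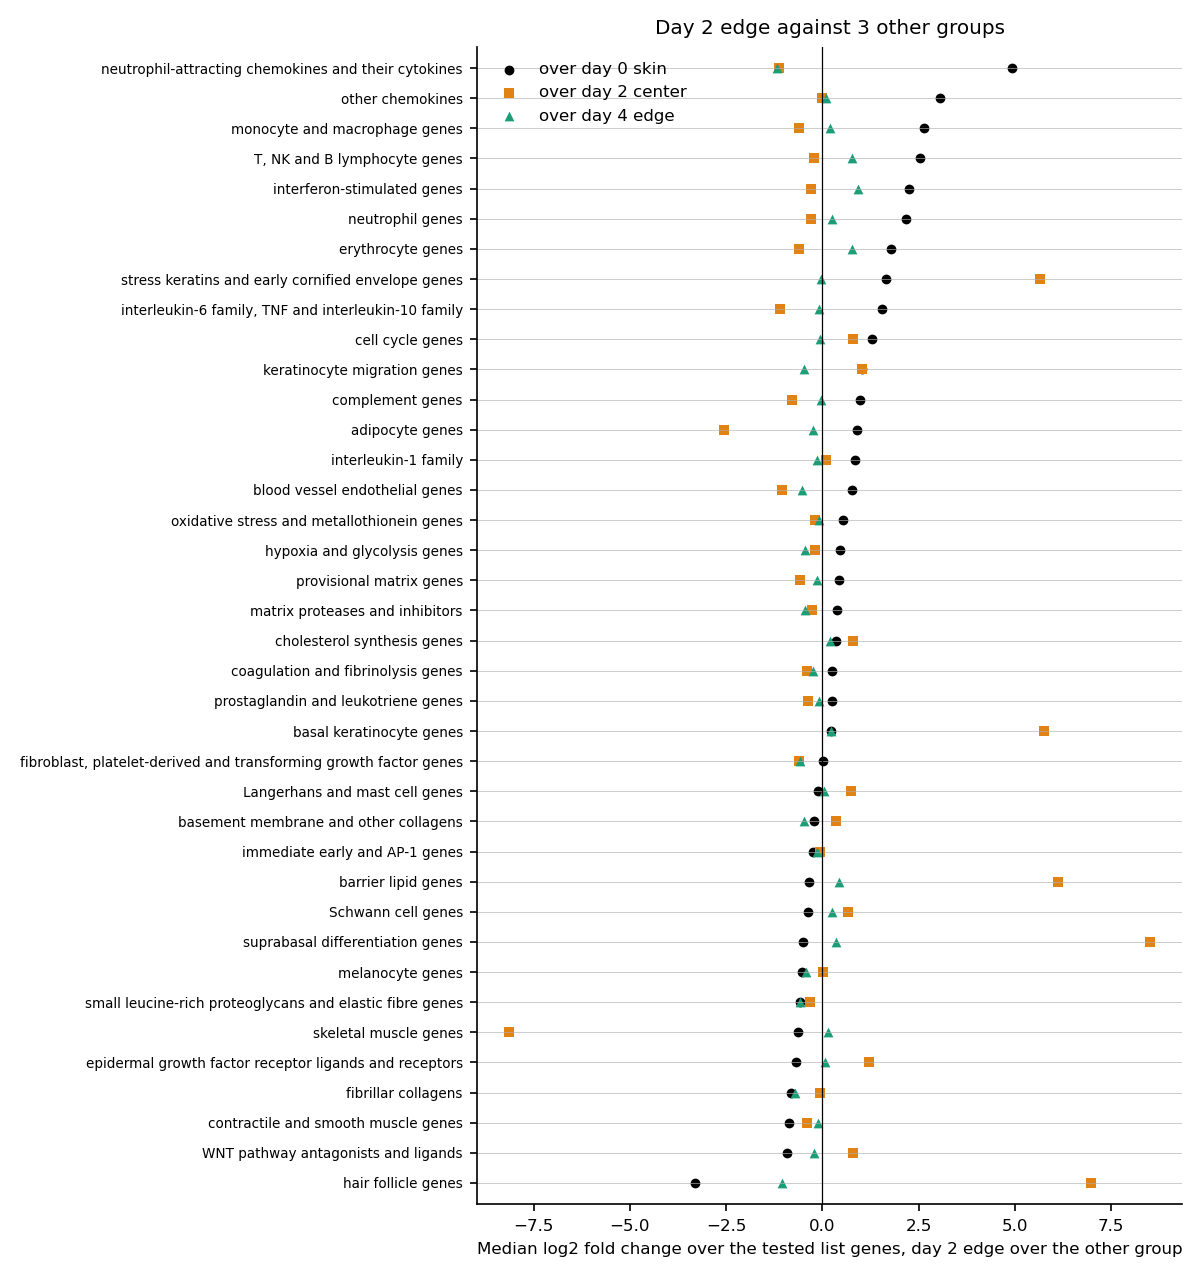
Median log2 fold change over the tested genes of each of the 38 lists for the day 2 edge over day 0 skin (black circles), over the day 2 center (orange squares) and over the day 4 edge (green triangles), which share the 6 day 2 edge samples. The suprabasal, hair follicle, barrier lipid and basal lists lie far to the right against the center, and against the day 4 edge most medians lie near 0.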

How the data were processed

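Gene expression was measured by RNA-seq of pig skin and wound biopsies. The authors deposited raw read counts per gene for 30461 genes, and these counts were used as deposited. A second deposited table of FPKM values was not used. The aligner, counter and genome build are not given in the sources used here. Symbols came from the name column for 12300 genes and from a protein match for 9387, and 8774 were unnamed. Groups came from the labels. Genes were kept by filterByExpr (minimum count 10, minimum total 15), scaled by TMM and tested with edgeR 4.0.16 (quasi-likelihood test, R 4.3.3) in the 12 samples of each comparison, with Benjamini-Hochberg adjustment over all genes tested and a threshold of 0.05. All adjusted p-values are from this test unless DESeq2 1.42.0 is named. CPM are counts scaled to the library total. The procedure was tested on simulated data for the day 2 edge against day 0 skin, where the share of false calls stayed under the 0.05 threshold with edgeR and exceeded it with DESeq2. The simulated samples were independent and few of their genes were changed. It therefore cannot show the share of false calls where wounds share an animal or where changes are as broad as here.

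The members and the 38 gene lists (718 genes, 660 found) were chosen with earlier results of these data known. Named were the 12 genes with the largest change in each direction that passed the test, did not overlap between groups and had a mean of at least 10 CPM in the higher group, the 5 with the largest gain and the 5 with the largest loss in share of the counts, up to 4 per list with the largest change, and members whose role the text needs. The last of these, and IL24, were chosen after their values were seen. The samples of both days share 3 animals, which the labels name. The deviations of an edge sample and the day 0 sample of its animal correlated with a mean r of 0.105 (-0.0894 to 0.497), against -0.0279 for different animals, and the fit with the animal as a block is given where it changes a call. Alternatives were other scalings, DESeq2, no filter, summed wounds, the block, day 0 skin of the same animals, all samples in 1 fit and leaving out each sample.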

Additional observations from a re-analysis of the deposited data

Results flagged for a closer look

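Of 148 groups of 6 values tested for a sample far from the others (Dixon's ratio of the gap to the range, at its 95% critical value), 9 stood out, and chance gives about 7.4. At the day 2 edge, the mean level of interferon-stimulated genes was highest in animal 1328, wound A (ratio 0.681, at 7.25 against 5.26 log2(1 + CPM) for the next sample), and KLK15 had 1 high sample (0.818, at 2.71 against 1.26). In day 0 skin, KRT27 was low in animal 1324 (0.838, at 2.92 against 11.06), whose mean r with its replicates was also low (0.786, at 0.976 against 0.986). The means of the Langerhans and mast cell genes (0.7, at 3.12 against 2.51) and of the skeletal muscle genes (0.638, at 1.18 against 0.978) each had 1 high day 0 sample. CXCL8 (0.651), MARCO (0.66) and LPO (0.633) each had 1 high day 0 sample too, at levels no higher than 0.970 log2(1 + CPM).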

How the results depend on the processing

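Of 244 named results, 157 kept their direction and their side of the threshold under every alternative run. With the animal as a replicate block 220 did, 18 lost and 4 gained the call and 2 turned. The 2 are KRT10 and HPGDS, neither of which passed the test. KRT10 (-0.18) was at 0.14 with the block, 0.13 with day 0 skin of the same 3 animals and 0.20 with the wounds summed and the block. HPGDS (-0.66) was at 0.21, 0.24 and 0.25. With all 150 samples in 1 fit, 198 of the 244 held, 41 lost the call and 5 gained it. Those that lost it include KRT6B (adjusted p = 0.101), KRT15 (0.530), CDH3 (0.353), ITGA6 (0.155), SPINK5 (0.336) and FLG2 (0.329). EREG (0.114), ERBB3 (0.121), SPTLC3 (0.290), PNPLA1 (0.376), FOXN1 (0.143) and FMO2 (0.148) lost it too. The block gave 2701 genes higher and 2603 lower than day 0 skin. Asking for at least 2-fold gave 1197 higher and 1036 lower. The number lower was 2193 with day 0 skin of the same 3 animals, 1758 with the wounds summed and the block (chosen after seeing the data) and 2191 with all 150 samples in 1 fit. Leaving out 1 sample gave 3173 to 3669 higher and 2853 to 3290 lower. Against the day 2 center these ranges were 2299 to 2837 and 2124 to 2653, and the fit with the wound as a block gave 2631 and 2404. Against the day 4 edge, leaving out 1 sample gave 0 to 44 higher and 0 to 232 lower. There, scaling without TMM gave 2 higher and 21 lower, DESeq2 gave 182 and 582, and all 150 samples in 1 fit 17 and 371. The number lower was 95 with wounds summed and 27 with the animal as a block. The cause of these differences was not tested. Genes under about 10 counts per sample were not tested at this depth.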
